A study of Mus musculus with 15 samples.

Results

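The miR-297, miR-466, miR-467 and miR-669 families are mouse microRNAs (miRNAs) whose hairpins lie, for the most part, in 1 intronic cluster of the gene Sfmbt2. Members were every miRNA name in the count files beginning miR-297, miR-466, miR-467 or miR-669, whatever its letter, copy number or arm, and there were 75 of them among 1558 names. They were 6 names of miR-297, 29 of miR-466, 11 of miR-467 and 29 of miR-669, and all are written here without the prefix mmu. Small RNA was sequenced by AQ-seq, a protocol with randomized adapter ends that lowers ligation bias, from a commercial panel of total RNA. The panel gave 1 library for each of 15 sources. The embryo class held an 11-day, a 15-day and a 17-day whole embryo (3 libraries), where the last is 17-day by its title but 15-day by its source field. The nervous class held brain, eye and spinal cord (3 libraries). The class called other organ held heart, kidney, liver, lung, salivary gland, smooth muscle, spleen, stomach and testis (9 libraries). None of the sources carried a treatment or an engineered allele according to the labels, which give neither the strain, sex, age or number of animals nor any repeat library. Tissues or stages therefore stood in as the replicates of a class, and p-values measure the spread between them, part of which may be technical.

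A miRNA hairpin is cut into a duplex of a 5p and a 3p arm, and usually 1 arm is kept in an Argonaute protein, where bases 2 to 8 of the miRNA, the seed, pair with target messenger RNAs. Sfmbt2 encodes a Polycomb-group protein, is expressed from the paternal allele in early embryos and trophoblast, and is known in rodents for the large array of miRNA hairpins in its intron. The copies arose by tandem duplication, so that many mature sequences are identical or nearly so.

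In RefSeq (build GRCm38.p6, the mm10 assembly), 81 hairpin genes carry these 4 numbers, and 71 of them lie within Sfmbt2 on the plus strand of chromosome 2. The 71 hairpins run from 10466663 to 10518279, a span of 51.6 kb, with a median of 298.5 bases between neighbouring starts. All 71 fall in introns of the annotated Sfmbt2 transcripts and 0 overlap an exon. The cluster holds 5 hairpins of miR-297, 23 of miR-466, 14 of miR-467 and 29 of miR-669, among them 12 copies of miR-669a, 10 of miR-467a and 8 of miR-466b. A further 10 hairpins lie elsewhere in the genome.

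Mature sequences in the RefSeq table used here matched 5 of the 75 names, all of them from hairpins outside Sfmbt2. They are shown because each holds CACACA or UGUGUG and because miR-466q and miR-466k differed between libraries in the ways described further on. The other 70 names had no sequence here, so whether they hold such repeats was not examined. Each is written 5′ to 3′, with the seed in capitals.
miR-466i-3p: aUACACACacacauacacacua
miR-466k: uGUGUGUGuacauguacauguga
miR-466j: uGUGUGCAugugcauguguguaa
miR-466q: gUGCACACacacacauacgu
miR-467h: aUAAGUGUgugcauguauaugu
The 5 lie at chr13:17747552-17747573, chr3:85467396-85467418, chr10:60960802-60960824, chr3:28419988-28420007 and chr9:115381898-115381919, in that order and all on the plus strand. No seed was shared: the 8 mature sequences that RefSeq gives for these family numbers, including 3 names not listed in the count files, had 8 distinct seeds. All 8 hold CACACA or UGUGUG, read on the strand of the mature miRNA only, against 1.92% of the 1671 other mature names in the table. The 5 names together had 423 reads, 0.831% of the 50892 member reads in the 15 libraries, so the values that follow come almost wholly from other members.

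Reads from copies with the same mature sequence cannot be assigned to 1 copy, and the count files hold names that were not independent. In 4 pairs both names had identical counts in every library: miR-467a-5p and miR-467b-5p, miR-669a-5p and miR-669p-5p, miR-669a-3p and miR-669o-3p, and miR-466d-5p and miR-466n-5p. Each pair was counted once, under its first name, which left 71 rows. Several more names differed by less than sampling noise. The counts of miR-466a-3p, miR-466b-3p, miR-466c-3p, miR-466e-3p and miR-466p-3p varied among themselves with a chi-square of 0.0863 per degree of freedom, where separate reads would give about 1. For miR-297a-3p, miR-297b-3p and miR-297c-3p this value was 0.0451. Whether 1 read was entered under each of these names, or reads were divided among them, cannot be told from the counts, so pooled values are given below also with such names counted once.

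Library totals ran from 922137 to 3161463 reads in 14 libraries and came to 148052 in testis, where 3 reads equal 20.26 CPM, that is, reads scaled to a library total of 1000000, against 0.949 in brain. Of 30 checks of known tissue miRNAs against the labels, the labelled library ranked first in 16 and no lower than 3 of 15 in the rest. The smooth muscle library had the highest level of miR-194-5p, a miRNA of gut epithelium and kidney, at 147721.3 CPM.

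Pooled over the 4 families, member reads were highest in the 11-day embryo and in testis, which stood apart from the other 13 libraries. The 11-day embryo gave 13217.3 CPM (exact 95% interval 13035.5 to 13401.0, from 19893 reads) and testis gave 11482.5 CPM (10946.0 to 12038.2, from 1700 reads). The level was 3231.1 CPM in the 15-day embryo and 2255.5 CPM in the 17-day embryo. Among the tissues other than testis, spleen was highest at 2170.0 CPM (2109.2 to 2232.0), followed by stomach at 1414.1 CPM and spinal cord at 1267.1 CPM. Salivary gland had 768.5 CPM, brain 700.3 CPM, eye 398.3 CPM, lung 371.7 CPM, kidney 327.7 CPM and smooth muscle 280.1 CPM. Liver, at 199.9 CPM (179.4 to 222.0), and heart, at 185.7 CPM (169.6 to 203.0), were lowest. The 11-day embryo therefore exceeded heart 71.17-fold. The intervals of the 17-day embryo and spleen overlapped, as did those of eye and lung, lung and kidney, kidney and smooth muscle, and liver and heart, so those neighbours in the order were not separated by counting error. Intervals cover counting error only, because the reads carry no molecular identifiers. They also take each counted read as separate, although 1 read may stand under several names, so they may be too narrow. With nearly identical names counted once, the 11-day embryo had 10761.6 CPM, outside its interval above. In bulk RNA, fewer cells that make these miRNAs and less miRNA per cell cannot be told apart.

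**Figure D1:**
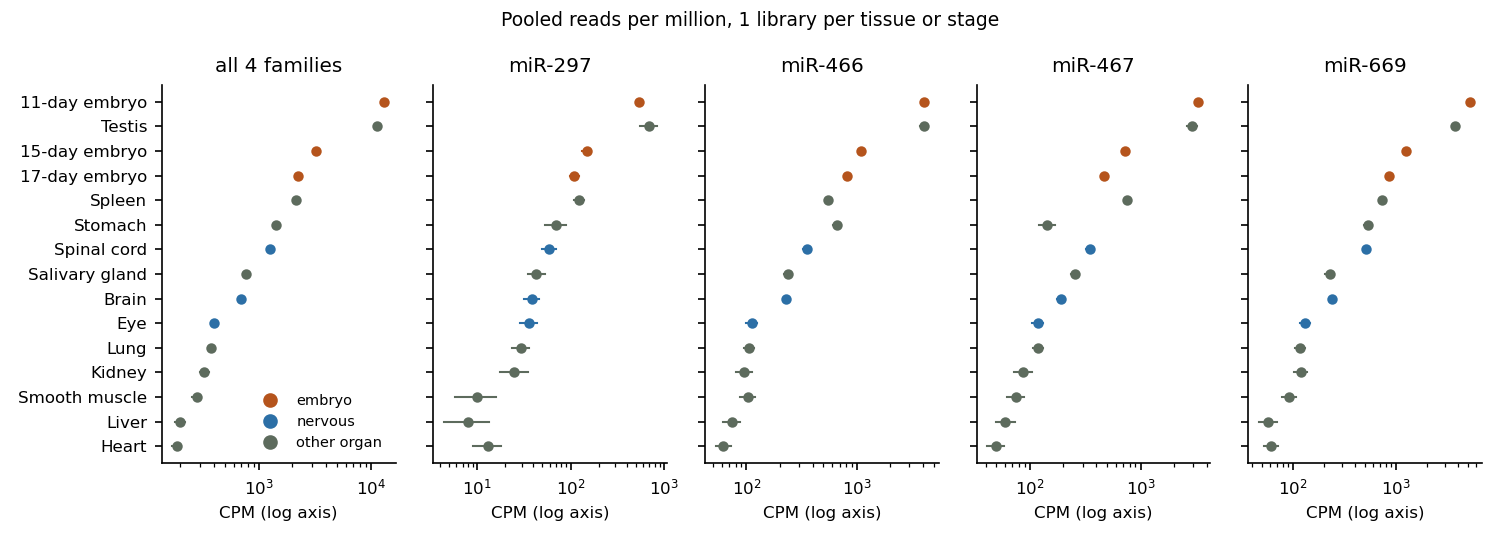
Pooled level of each family in the 15 libraries, in CPM on a log axis, with points coloured by class and bars for the exact 95% counting interval. The 11-day embryo and testis hold the 2 highest levels in all 4 families.

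The families were close to one another in this order. In miR-669 the 3 embryos had 5274.2, 1257.8 and 854.4 CPM from the earliest stage to the latest, testis had 3775.7 CPM, and the lowest level was 57.6 CPM in liver. In miR-466 the embryos had 4066.9, 1105.1 and 820.5 CPM, testis had 4106.7 CPM and heart, the lowest, 61.77 CPM. In miR-467 they had 3328.1, 719.7 and 470.4 CPM, with testis at 2911.1 CPM and heart at 49.57 CPM. The smallest family, miR-297, had 548.1, 148.4 and 110.1 CPM in the embryos, 688.9 CPM in testis and 8.063 CPM in liver. The counting intervals of testis and the 11-day embryo overlapped in miR-297 and miR-466, and testis was below the 11-day embryo beyond them in miR-467 and miR-669.

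Spleen and stomach differed by family. Spleen had 755.0 CPM of miR-467 and stomach 144.2 CPM, whereas for miR-466 stomach was the higher, at 668.0 CPM against 551.2 CPM. For miR-669 spleen was again above stomach, which had 532.5 CPM. By CPM of library totals, spleen was above the 17-day embryo in miR-467, with an interval that overlapped that of the 15-day embryo. On that scale it was below all 3 embryos in miR-466 and miR-669, an order that changed with the scaling given below. In miR-297 the intervals of spleen and the 17-day embryo overlapped.

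As class means, the 4 families had 6234.6 ± 6066.8 CPM in embryo (SD, n = 3), 788.6 ± 441.1 CPM in nervous (SD, n = 3) and 1911.1 ± 3651.6 CPM in other organ (SD, n = 9), where the median was 371.7 CPM. Without testis, the other organ mean was 714.7 ± 718.3 CPM (SD, n = 8), and without the 11-day embryo the embryo mean was 2743.3 CPM. Testis was the only 1 of the 9 other organs at or above the lowest embryo for the pooled sum, and no nervous library reached it. With nearly identical names counted once the class means were 5035.0, 631.5 and 1466.2 CPM, in the same order. Scaling by trimmed mean of M-values (TMM), which allows for the few very abundant miRNAs that dominate some tissues, put testis first at 7833.9 CPM and the 11-day embryo second at 6103.4 CPM. On that scale spleen, at 2791.6 CPM, was above the 15-day embryo at 1679.6 CPM and the 17-day embryo at 1070.8 CPM, and the 11-day embryo exceeded heart 14.91-fold.

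The pooled level in the 11-day embryo was 4.091 times that in the 15-day embryo, which in turn was 1.433 times that in the 17-day embryo. The first ratio was 3.693 for miR-297, 3.68 for miR-466, 4.624 for miR-467 and 4.193 for miR-669. The direction was shared by nearly all members: 45 of the 46 rows with enough reads for testing were higher in the 11-day than in the 15-day embryo (median ratio 3.792), and 40 of 46 were higher in the 15-day than in the 17-day embryo (median ratio 1.317). The same counts were not taken over all rows, so they do not set the members apart from other miRNAs, and many of these rows share sequences. By TMM, a scaling that allows for library composition, the 2 pooled ratios were 3.634 and 1.568. Each stage is 1 library, so these ratios have no replicate check. Of the 60 rows with at least 20 reads, 33 were highest in the 11-day embryo and 27 in testis, and in 49 these were the 2 highest libraries. Some testis ranks rest on few reads in that small library: miR-466j was highest there at 6.754 CPM, which was 1 read. This count was not taken over all rows either.

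Other embryo and germ cell miRNAs were also high in 1 or more of these libraries. The pooled miR-290 to miR-295 family, typical of pluripotent cells and trophoblast, had 3313.5 CPM in the 11-day embryo, 52.45 and 28.57 CPM in the later embryos, 222.9 CPM in testis, 19.58 CPM in liver and no more than 1.736 CPM elsewhere. A list of miRNAs typical of germ cells had 91846.1 CPM in testis and 294.3 CPM in the 11-day embryo. The imprinted miRNAs miR-335, miR-483 and miR-675 had 14804.6, 11619.5 and 7652.1 CPM in the 3 embryos from earliest to latest, but 168.9 CPM in testis, below brain (1339.3 CPM), spinal cord (1472.1 CPM) and heart (622.7 CPM). The part of these cells in the level of the 4 families was not tested. Over the 15 libraries, the names outside the families whose log2(CPM + 1) was most like that of the pooled families were miR-25-5p (Pearson r = 0.859), miR-93-3p (0.848), miR-291a-3p (0.842), miR-296-5p (0.841) and miR-1306-3p (0.833), given as a description over libraries that differ in depth and composition.

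The families differed in which hairpin arm gave most reads. The 5p share, the percentage of 5p reads among 5p and 3p reads, was near its maximum for miR-467 in every library, between 93.23% and 98.47%. Its 5p reads came mostly from miR-467a-5p (54.9%) and miR-467e-5p (23.8%). For miR-669 the share was intermediate, with an embryo mean of 64.82% ± 5.0 (SD, n = 3), a nervous mean of 53.58% ± 5.555 (SD, n = 3) and an other organ mean of 51.6% ± 8.661 (SD, n = 9). Its 3p reads were nearly all from 1 row, miR-669a-3p with 89.1% of 7217 reads, while its 5p reads were spread over miR-669a-5p (26.6%), miR-669c-5p (17.4%) and 9 other rows. If both names of the identical pairs were counted, the 3 means for miR-669 were 54.94%, 42.95% and 42.46%.

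For miR-466 the 3p arm led as counted. The 5p share was 25.55%, 25.91% and 28.98% in the embryos from earliest to latest, 15.42% in brain, 12.59% in eye and 14.85% in spinal cord. In the other organs it ran from 8.059% in stomach to 30.18% in spleen, with a median of 16.3%. Lung (26.09%) and spleen were the only other organs within or above the embryo range. With each set of nearly identical names counted once, the class means of the 5p share were 54.25% in embryo, 31.57% in nervous and 39.72% in other organ. The leading arm then turned to 5p in the 3 embryos, lung (52.17%) and spleen (54.97%), and stayed 3p in the other libraries. For miR-297 the embryo shares were 44.0%, 49.84% and 48.79%, against 27.87% in brain, 3.297% in eye (3 of 91 reads), 17.89% in spinal cord, 26.47% in testis and 50.18% in spleen. Counting the nearly identical names once moved the miR-297 class means to 72.81%, 33.47% and 57.37% in the same order. The miR-467 share did not move under that counting, because none of its names were nearly identical beyond the identical pair.

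**Figure D2:**
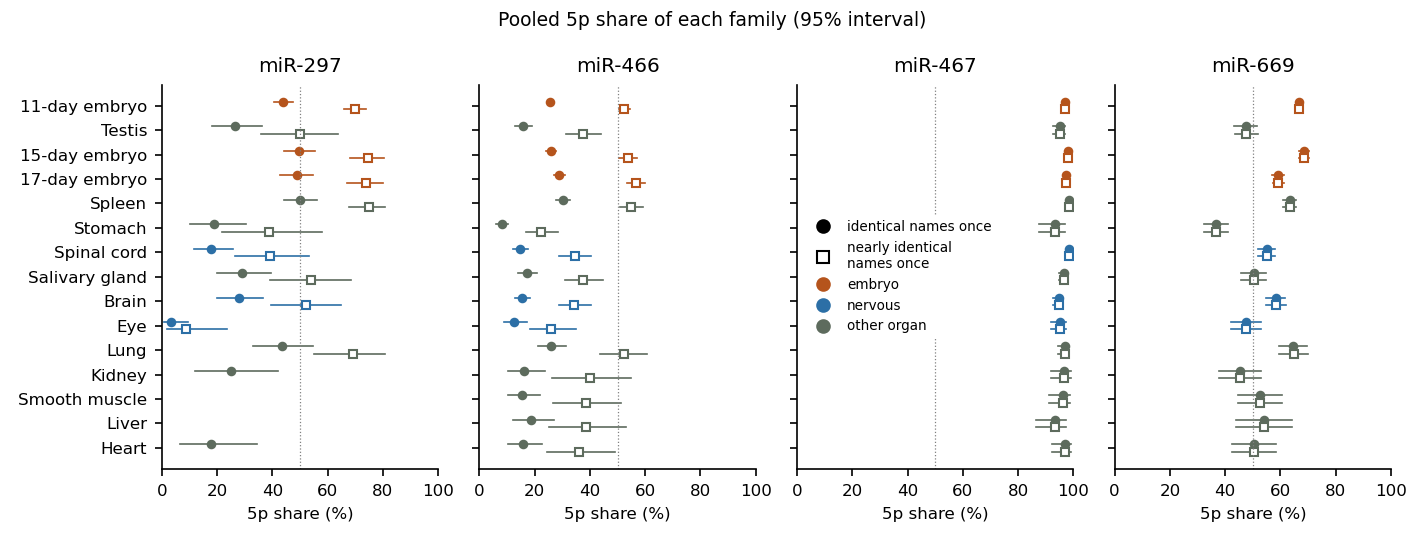
Pooled 5p share of each family in each library, in percent of 5p and 3p reads, with exact 95% intervals; open squares show the share with nearly identical names counted once, and shares under 20 reads are left out. The miR-467 shares all lie at or above 93.23%, and in miR-466 stomach is lowest and spleen highest.

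Over the 4 families together the 5p share was 61.08%, 59.96% and 55.95% in the embryos, 66.77% in spleen (65.41 to 68.11), 62.76% in lung, 47.18% in testis (44.78 to 49.6) and 28.13% in stomach (25.69 to 30.67). The intervals of spleen, testis and stomach did not overlap one another, and stomach was the lowest of the 15 libraries. With nearly identical names counted once, the class means of this share were 72.7% in place of 59.0% in embryo, 64.99% in place of 52.04% in nervous and 64.8% in place of 51.34% in other organ, with stomach still lowest at 41.82% and spleen highest at 77.08%.

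Member rows were also set side by side in pairs of libraries that stood out in the values above. The 11-day embryo and testis had the 2 highest pooled levels by CPM, and spleen and stomach the highest and lowest pooled 5p share. These rows make up the pooled shares, so their split by arm breaks those shares down and is no separate support for them. Between the 11-day embryo and testis, 19 of 23 5p rows with at least 3 reads in both were higher in the embryo (median ratio of CPM 1.557), but 2 of 17 3p rows were (median ratio 0.8748). The ratio ran from 0.8213 for miR-467e-5p to 4.968 for miR-669l-5p among the 5p rows and from 0.3607 for miR-466n-3p to 1.82 for miR-669f-3p among the 3p rows. Between spleen and stomach, 18 of 19 5p rows were higher in spleen (median ratio 2.904) and 5 of 15 3p rows were (median ratio 0.6846). There miR-467a-5p had 350.0 CPM in spleen and 69.4 CPM in stomach, while miR-669a-3p had 241.6 CPM in spleen and 300.4 CPM in stomach. These are comparisons of 1 library with 1 library, their rows share sequences, and no test was made. How many rows lie above 1 also depends on scaling, which moves all rows of a pair by the same factor. By TMM the pooled 11-day embryo level was 0.7791 times that of testis, against 1.151 times in CPM. Fewer rows are therefore higher in the embryo on that scale, while the difference between the arms is unchanged.

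**Figure D3:**
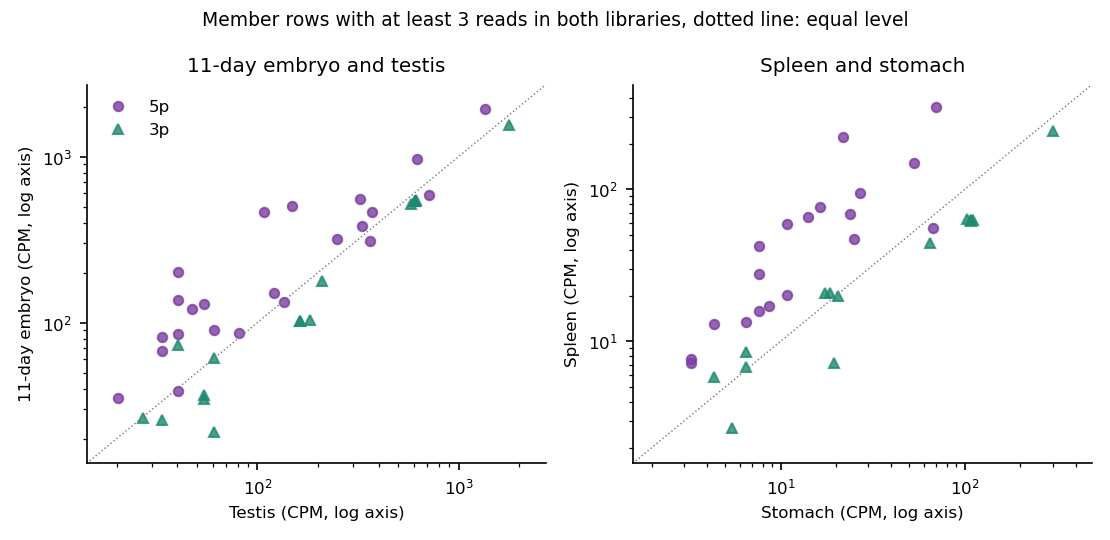
CPM of each member row in the 11-day embryo against testis and in spleen against stomach, on log axes with the line of equal levels, coloured by arm. In both panels the 5p rows lie mostly on the 11-day embryo or spleen side, with median ratios of 1.557 and 2.904, and the 3p rows have median ratios of 0.8748 and 0.6846.

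Between embryo and other organ, nearly all member rows had fold changes towards embryo, but few passed the test. Of 46 member rows tested by edgeR's quasi-likelihood test, 3 were higher at an adjusted p under 0.05 and 0 were lower, against 27.5% of all 688 rows called higher and 17.3% called lower. The share of members called higher was therefore below that of all rows. At an unadjusted p under 0.05, 8 members were higher and 1 was lower. Rows called at the adjusted threshold pass this one too, so at least 27.5% and 17.3% of all rows were higher and lower by it. Both member counts were therefore below the share of all rows here as well. Fold changes were above 0 in 45 of 46 rows, with a median log2 fold change of 0.94 against 0.10 over all rows. The 26 rows from 5p arms had a median of 1.41 (0.27 to 2.41) and the 17 rows from 3p arms a median of 0.59 (0.09 to 1.30). By family, 6 rows of miR-297, 21 of miR-466, 6 of miR-467 and 13 of miR-669 were tested, and the 25 rows left out by the filter on low counts had at most 56 reads each.

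The 3 members that rose were all 5p miRNAs of the miR-669 family. miR-669l-5p had 201.3, 41.68 and 22.47 CPM in the 11-, 15- and 17-day embryos, and 1.152, 4.174 and 40.53 CPM as the lowest, median and highest of the 9 other organs. Testis was the only other organ above the lowest embryo. Its log2 fold change was 2.31 ± 0.74 (SE; edgeR adjusted p = 0.019). miR-669b-5p had 461.8, 126.4 and 82.28 CPM in the embryos, and 2.087, 7.07 and 108.1 CPM as the lowest, median and highest other organ, a log2 fold change of 2.25 ± 0.87 (SE; edgeR adjusted p = 0.047). Here too testis reached the embryo range while spleen, at 58.94 CPM, did not. miR-669e-5p had 65.78, 22.01 and 12.95 CPM in the embryos, and 0.576, 1.157 and 13.51 CPM as the lowest, median and highest other organ, a log2 fold change of 2.25 ± 0.69 (SE; edgeR adjusted p = 0.014). Testis, the highest of these organs, was 2 reads for this miRNA.

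**Figure D4:**
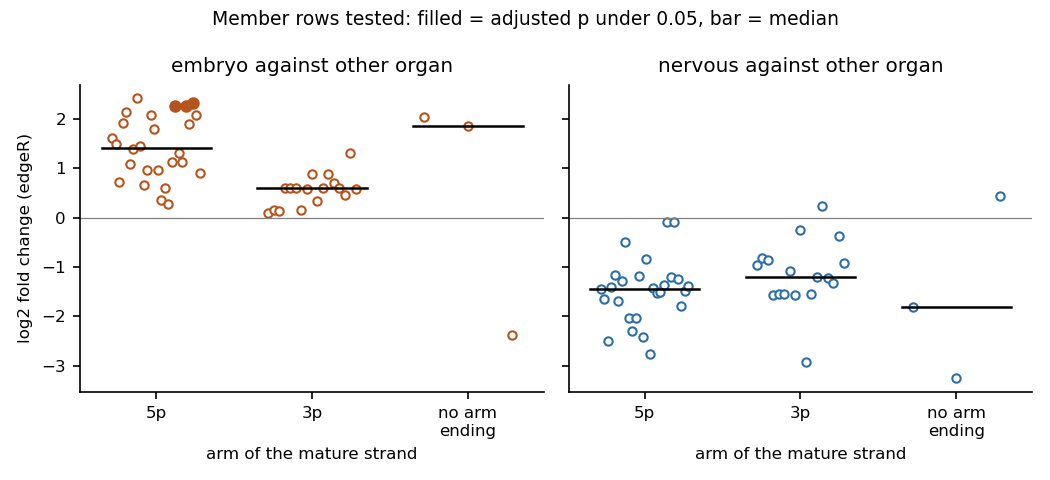
Log2 fold changes of the 46 tested member rows, embryo minus other organ and nervous minus other organ, grouped by arm, with bars at the median of each arm and filled points for rows past the threshold. In the embryo comparison 45 of 46 lie above 0 with 3 past the threshold, and in the nervous comparison 44 of 46 lie below 0 with 0 past it.

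The hairpins of these 3 miRNAs lie near the start of the cluster: from the start of Mir669e at 10467495 to the end of Mir669l at 10469068 is 1574 bases. Mir669b, from 10467790 to 10467886, lies between them, and so do Mir669d and Mir466f-2. miR-669d-5p did not pass the test (log2 fold change 1.12; edgeR adjusted p = 0.33). Across the 15 tested 5p rows that map to 1 hairpin of the cluster, those in the first 3 kb (5 rows) had a median log2 fold change of 2.25 (0.96 to 2.31) and those beyond it (10 rows) a median of 0.82 (0.27 to 2.41). The highest, miR-466e-5p at 2.41, lay 12425 bases from the first hairpin. This division was chosen after the values were seen, and the correlation of distance with fold change (Pearson r = -0.54 over the 15 names, which share all libraries) is a description.

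The number of members called changed with the libraries left out and with the scaling. Without the 11-day embryo 0 members were called higher, beside 165 of all 719 rows. The median log2 fold change was then -0.47 (all rows, -0.33) and 17 of 46 rows were above 0. In that fit the values of miR-669l-5p, miR-669b-5p and miR-669e-5p were 0.77, 1.05 and 1.25, with edgeR adjusted p of 0.53, 0.49 and 0.26. Without testis 17 of 45 members were called higher, beside 206 of all rows, with a median of 1.63 (all rows, 0.19). Without spleen 14 of 46 members were called higher, beside 200 of all 683 rows. The share of members called was close to that of all rows without spleen and somewhat above it without testis. Without brain, or without spinal cord, 1 was called, miR-669e-5p, beside 187 of 740 and 190 of 735 rows. Scaling by library totals alone gave 14 calls among 46 members, beside 287 of all 688 rows. It also moved the median of all rows from 0.10 to 1.38 and that of members to 1.92. DESeq2 called 5 of 46 higher (all rows, 193 of 688), and leaving out testis and smooth muscle together gave 10 of 45 (all rows, 200 of 666). The call of miR-669e-5p held in each of these alternatives except the one without the 11-day embryo, whereas miR-669b-5p, whose adjusted p was closest to the threshold, ranged from 0.011 to 0.49.

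The most abundant members did not pass the edgeR test, although miR-669b-5p, with 1478 reads, did. DESeq2 called miR-467a-5p (log2 fold change 1.88, adjusted p = 0.033) and miR-669d-5p (2.13, adjusted p = 0.0065). These 2 values lie nearer those of edgeR without testis (1.76 and 2.03) than those of edgeR with all libraries (0.97 and 1.12). DESeq2 was run with its default handling of outlying counts, and the reason for the difference was not tested. miR-467a-5p, the most abundant row, had 1940.1, 362.9 and 242.7 CPM in the embryos from earliest to latest, and 19.07, 48.82 and 1357.6 CPM as the lowest, median and highest other organ. Heart was lowest and testis highest, and spleen, at 350.0 CPM, lay within the embryo range. The log2 fold change was 0.97 ± 0.95 (SE; edgeR adjusted p = 0.42), -0.66 without the 11-day embryo and 1.76 without testis. miR-669m-5p had 501.0, 139.5 and 87.23 CPM in the embryos, 148.6 CPM in testis, 65.69 CPM in spleen and a median of 8.417 CPM over the other organs. Its log2 fold change was 2.07 ± 0.87 (SE; edgeR adjusted p = 0.066), and the adjusted p was 0.016 without testis and 0.023 without spleen. Without the 11-day embryo the log2 fold change was 0.86 (edgeR adjusted p = 0.58). miR-669a-3p had 1554.1, 344.2 and 310.8 CPM in the embryos and 1776.4 CPM in testis, and its partner arm miR-669a-5p had 967.4, 201.8 and 110.5 CPM with 621.4 CPM in testis. The 3p arm thus had the higher testis level of the pair relative to the 11-day embryo, and the log2 fold changes were 0.45 ± 0.95 for the 3p and 1.13 ± 0.96 for the 5p arm (SE; edgeR adjusted p = 0.71 and 0.35).

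Among other 5p rows of these families, miR-669d-5p had a log2 fold change of 1.12, miR-669c-5p of 1.30, miR-467d-5p of 0.59, miR-467c-5p of 0.35 and miR-467e-5p of 0.27, none past the threshold. The miR-466 family was led by miR-466c-3p, with 546.8, 148.0 and 103.6 CPM in the embryos and 614.6 CPM in testis, or 2187 reads in all. miR-466a-3p, miR-466e-3p and miR-466p-3p, with 2163, 2172 and 2159 reads, cannot be separated from it, and the log2 fold changes of the 4 rows were 0.58 to 0.59. The 3p rows of miR-297 were close to 0, at 0.09 for miR-297a-3p, 0.16 for miR-297b-3p and 0.14 for miR-297c-3p, values that turned to -0.11, -0.01 and -0.03 with DESeq2. Its 5p rows were higher, at 1.62 for miR-297a-5p, 1.48 for miR-297b-5p and 0.72 for miR-297c-5p, none past the threshold. miR-297c-5p had 132.2 CPM in the 11-day embryo and 135.1 CPM in testis.

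miR-466q was the 1 member below 0 in embryo, and it is described here because it was singled out after its values were seen. It had 1.329, 1.873 and 2.286 CPM in the embryos from earliest to latest, 11.7 CPM in brain, 3.549 CPM in eye and 7.218 CPM in spinal cord, and 0.0, 3.03 and 20.26 CPM as the lowest, median and highest other organ. Its hairpin is on chromosome 3, away from Sfmbt2. The log2 fold change was -2.37 ± 0.96 (SE; edgeR adjusted p = 0.056), and DESeq2 called it lower, as did edgeR without kidney or without liver. The highest other organ, testis, was 3 reads. miR-466k, also on chromosome 3 and also chosen after its values were seen, had instead 59.8, 16.86 and 14.09 CPM in the embryos and 0.3163, 0.3943 and 0.4812 CPM in brain, eye and spinal cord, which was 1 read in each of the 3 nervous libraries.

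Between nervous tissue and other organ, which shares the 9 other organ libraries with the comparison above, nearly all member rows had fold changes below 0, but none passed the edgeR test. Of 46 rows, edgeR called 0 higher and 0 lower at an adjusted p under 0.05, against 28.8% and 12.8% of all 688 rows. At an unadjusted p under 0.05 there were 0 higher and 2 lower, again below the share of all rows, which is at least 28.8% and 12.8%. DESeq2 called 5 of the 46 lower, miR-297c-5p, miR-466h-5p, miR-466k, miR-466p-5p and miR-467c-5p, beside 159 of all 688 rows, so the member share was below that of all rows. Fold changes were below 0 in 44 of 46 rows, with a median log2 fold change of -1.39 against -0.17 over all rows, and -0.61 without testis. Leaving out heart, or stomach, gave 1 lower call, miR-466k (all rows, 92 of 686 and 89 of 681). Leaving out eye gave 1 higher call among 54 members, miR-669h-5p (all rows, 205 of 751). This row was not among the 46, because it failed the filter on low counts in the main fit. It had 0 reads in eye, 5 in brain and 13 in spinal cord, so its entry and its call rest on the same few reads. The medians were -1.44 for 5p rows and -1.21 for 3p rows.

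Among the 3 nervous libraries spinal cord was highest by CPM for 39 of the 46 rows. Many of these rows share sequences, and the same count was not taken over all rows, so it does not set the members apart. miR-467a-5p had 116.1 CPM in brain, 65.07 CPM in eye and 219.4 CPM in spinal cord, and miR-669a-3p had 90.15, 58.76 and 205.5 CPM in that order. miR-297c-5p had 5.694, 0.3943 and 6.737 CPM, where the eye value was 1 read, and its log2 fold change was -2.49 ± 1.21 (SE; edgeR adjusted p = 0.11). The largest change among the abundant rows was that of miR-467c-5p, at -2.75 ± 1.30 (SE; edgeR adjusted p = 0.099), with 7.908, 4.338 and 12.51 CPM in the nervous libraries against a median of 13.13 CPM over the other organs. miR-669c-5p had 55.04, 21.69 and 84.7 CPM in brain, eye and spinal cord against an other organ median of 10.42 CPM, and its log2 fold change was -0.09, or 0.68 without testis. Unscaled levels were not all low against the typical organ: the median other organ had 48.82 CPM of miR-467a-5p and 59.83 CPM of miR-669a-3p, and the pooled nervous median of 700.3 CPM was above the other organ median of 371.7 CPM and below the other organ mean of 1911.1 CPM.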

How the data were processed

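The deposited files hold whole-number read counts per mature miRNA name for 15 libraries, unnormalized, from the authors. The tools named, per the submitters' processing notes, are bcl2fastq 1.8.4, BWA, bedtools and cutadapt, with the build mm10. Tool options, miRNA annotation and how multi-mapped reads were counted: not given in the sources used here. The labels' protocols add synthetic spike-in RNAs, which were not used here.

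A name missing from a library was taken as 0. Names of 1 number with identical counts and at least 20 reads were made 1 row. Counts were tested with edgeR 4.0.16 (R 4.3.3; TMM, filterByExpr, quasi-likelihood test) over all 15 libraries in 3 classes, with Benjamini-Hochberg adjustment over the 688 rows tested and a threshold of 0.05. The filter took 13.3% of testis reads and at most 0.216% elsewhere. On simulated data, the embryo comparison recovered 12.0% of 4-fold and 85.4% of 16-fold changes (651 rows) and the nervous comparison 14.7% and 73.9% (635 rows). CPM values are counts scaled to a library total of 1000000, with exact Clopper-Pearson 95% intervals that cover counting error only. These intervals take reads as separate, which names that share reads may not be. Python 3.11.15 was used for the rest. Sums over members have no test.

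Named members were miR-669m-5p, miR-467a-5p, the 4 rows of each family with the highest mean CPM, and up to 5 called members at each end of each comparison. The members and lists were chosen with earlier results of these data known. Alternatives were DESeq2 1.42.0, RLE size factors, library totals only, no filter, 2 classes only, every name counted, shares over names with both arms, and each library left out. Added after the data were seen were leaving out testis with smooth muscle and counting once the names whose counts agreed more closely than separate reads would (chi-square per degree of freedom under 0.5).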

Additional observations from a re-analysis of the deposited data

Results flagged for a closer look

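Among the 9 other organs, 1 library stood far from the other 8 in 24 of 30 sets of values examined, and in 23 of them this was testis as the highest. A set was flagged when the gap to the next library reached 0.493 of the range. That limit flags about 1 in 20 sets only for normally distributed values, which CPM across organs need not be, so no rate by chance is given here. The sets also share libraries and sequences, so they are not independent. The pooled testis levels were 688.9 CPM for miR-297, 4106.7 CPM for miR-466, 2911.1 CPM for miR-467, 3775.7 CPM for miR-669 and 11482.5 CPM for the 4 families together. Among the 3p members, testis had 182.4 CPM of miR-297a-3p, 162.1 CPM each of miR-297b-3p and miR-297c-3p, 614.6 CPM of miR-466c-3p, 607.9 CPM each of miR-466a-3p, miR-466e-3p and miR-466p-3p, and 1776.4 CPM of miR-669a-3p. Among the 5p members of miR-297 and miR-467 it had 135.1 CPM of miR-297c-5p, 1357.6 CPM of miR-467a-5p, 364.7 CPM of miR-467c-5p, 331.0 CPM of miR-467d-5p and 716.0 CPM of miR-467e-5p. Among the miR-669 5p members it had 621.4 CPM of miR-669a-5p, 324.2 CPM of miR-669c-5p, 371.5 CPM of miR-669d-5p, 40.53 CPM of miR-669l-5p and 148.6 CPM of miR-669m-5p. Testis was not set apart in this way for miR-669b-5p or miR-669e-5p, where it had 108.1 and 13.51 CPM. The remaining value was the pooled 5p share of the 4 families in stomach, 28.13%, the lowest of the 9 organs, with a gap of 0.49 of the range, at the limit of the rule.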

How the results depend on the processing

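No paired analysis was possible because the labels give no replicate numbers and 1 library per tissue or stage. Among main values and counts under the alternatives, 325 stayed within the spread between libraries (counts within 1.5 times), 17 moved beyond it, and counts of calls were higher in 12 and lower in 3. Of the values for single named members, 827 kept their direction and their side of the threshold, 53 changed sign, 11 came to pass the threshold and 19 no longer passed it. Members called higher in embryo numbered 3, 5 with DESeq2 (all rows 193 higher), 14 with library totals only (all rows 287 higher and 42 lower, against 189 and 119) and 10 without testis and smooth muscle (all rows 200 higher). Leaving out 1 library gave 0 (without the 11-day embryo, all rows 165) to 17 (without testis, all rows 206) higher. It gave 0 to 1 lower (without kidney or liver), and DESeq2 gave 1 lower. In nervous tissue, leaving out 1 library gave 0 to 1 higher (a row not tested in the main fit) and 0 to 1 lower, and DESeq2 gave 5 lower. DESeq2 called 181 and 159 of all rows lower in embryo and nervous tissue, against 119 and 88. The cause of these differences was not tested.

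Counting nearly identical names once moved the 5p shares (embryo, nervous, other organ) to 72.81%, 33.47% and 57.37% for miR-297, to 54.25%, 31.57% and 39.72% for miR-466 and to 72.7%, 64.99% and 64.8% for the 4 families, and the nervous levels of miR-297 to 20.31 CPM and of miR-466 to 98.62 CPM. Counting every name moved the miR-669 shares to 54.94%, 42.95% and 42.46%, the embryo share of miR-467 to 98.33% and its nervous level to 353.0 CPM. Names with both arms listed gave an embryo share of 24.27% for miR-466.

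Signs turned in embryo for miR-297a-3p (DESeq2 -0.11, RLE -0.07), miR-297b-3p (DESeq2 -0.01) and miR-297c-3p (DESeq2 -0.03, RLE -0.0038), and in nervous tissue for miR-467a-5p (DESeq2 0.06), miR-669c-5p (no filter 0.17, no testis and smooth muscle 0.61) and miR-669e-5p (library totals 0.46, no filter 0.14, no testis and smooth muscle 0.06). Leaving out 1 library, log2 fold changes in embryo, lowest without the 11-day embryo and highest without testis, ran from -1.2 to 1.04 for miR-297a-3p, -1.1 to 0.99 for miR-297b-3p, -1.15 to 0.97 for miR-297c-3p, -0.24 to 1.35 for miR-297c-5p, -0.62 to 1.5 for miR-466a-3p, -0.63 to 1.5 for miR-466c-3p, -0.63 to 1.47 for miR-466e-3p, -0.61 to 1.51 for miR-466p-3p, -0.66 to 1.76 for miR-467a-5p, -1.42 to 1.24 for miR-467c-5p, -0.74 to 1.2 for miR-467d-5p, -0.79 to 0.94 for miR-467e-5p, -0.86 to 1.32 for miR-669a-3p, -0.46 to 1.92 for miR-669a-5p, -0.12 to 2.01 for miR-669c-5p and -0.08 to 2.03 for miR-669d-5p. In nervous tissue they ran from -1.22 to 0.04 for miR-297a-3p, -1.03 to 0.07 for miR-297b-3p, -1.06 to 0.05 for miR-297c-3p, -1.37 to 0.03 for miR-467a-5p, -0.57 to 0.68 for miR-669c-5p and -0.59 to 0.54 for miR-669e-5p. The cause was not tested. With 148052 reads in testis, members under 20.26 CPM there rest on at most 3 reads.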

Other observations

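Within the miR-669 family, miR-669c-5p was the highest of miR-669c-5p, miR-669d-5p and miR-669m-5p in each nervous library, while the embryos shared no single order of the 3. In the 11-day embryo miR-669m-5p had 501.0 CPM and miR-669c-5p 556.1 CPM, close to one another, whereas in brain miR-669m-5p had 9.806 CPM and miR-669c-5p 55.04 CPM, in eye 3.943 and 21.69 CPM, and in spinal cord 21.17 and 84.7 CPM. miR-669d-5p, at 463.1 CPM in the 11-day embryo, had 21.83 CPM in brain, 12.62 CPM in eye and 39.94 CPM in spinal cord. In the 15-day embryo the levels were 148.4 CPM for miR-669c-5p, 139.5 CPM for miR-669m-5p and 119.4 CPM for miR-669d-5p, and in the 17-day embryo 59.81, 87.23 and 98.66 CPM in that order. In testis the levels were 148.6 CPM for miR-669m-5p, 324.2 CPM for miR-669c-5p and 371.5 CPM for miR-669d-5p. Each library is 1 sample, and the order was not tested.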
